A study of Mus musculus with 42 samples.

Results

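The Wnt pathway genes described here are 41 mouse genes chosen by name for their role, with earlier results of these data known. They are 12 ligands, 12 receptors and co-receptors, 3 agonists, 6 secreted antagonists, 3 feedback genes and 5 nuclear effectors. They were read from 52636 gene lines counted in each of 9 RNA-seq libraries, and 36 of them were among the 17173 genes that passed a filter on low counts and were tested. The other 5 (Wnt3a, Wnt10a, Fzd6, Dkk1 and Lef1) had too few counts in most libraries. Peaks naming the 41 genes were also read from 6 lists, 1 per genotype and assay.

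Wnt ligands are secreted, lipid-modified proteins that bind Frizzled receptors together with the co-receptors Lrp5 and Lrp6. Binding halts the breakdown of β-catenin (encoded by Ctnnb1), which then enters the nucleus and works with TCF/LEF factors on target genes such as Axin2. R-spondins raise the amount of Frizzled at the cell surface by clearing the ubiquitin ligases Rnf43 and Znrf3, whereas secreted Frizzled-related proteins, Wif1 and Dickkopf proteins block ligands or co-receptors. In the embryonic forebrain Wnts from the cortical hem pattern the dorsal telencephalon and hippocampus, and Wnt1 and its relatives help to shape the midbrain.

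The 3 genotypes compared had 3 culture libraries each. The study's methods describe cortices of single embryos that were dissociated one by one, each animal counting as its own replicate, whereas the sample labels speak of pooled sexes, so how many embryos stand behind a library is not settled. All were primary neuronal cultures from embryonic day 16 forebrain, plated in serum and moved the next day to serum-free medium with cytosine arabinoside to hold back dividing glia. They were labelled as pooled male and female. The study collected them after a further period in vitro, so the RNA is not that of fresh embryonic tissue. Euploid cultures carry the normal chromosome set, Ts65Dn cultures carry an extra segment of chromosome 16 joined to part of chromosome 17, and Ts65Dn;Brwd1+/- cultures come from a cross of Ts65Dn females with males heterozygous for the Brwd1 repro5 allele, all on a mixed DBA/2J and B6EiC3Sn/J background. The question put was how a trisomic brain responds when Brwd1, which lies in the extra segment, is brought back toward its normal dose. SMARCA2/4 ChIP-seq came from hippocampus of adult males aged 6 to 8 weeks, with tissue of 2 animals in each replicate, and neuronal ATAC-seq from sorted NeuN-positive nuclei of adult male hippocampus, so the peaks and the RNA differ in age, tissue and cell mixture.

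Library depth lay between 17270070 and 25892802 counts in genes. None of the 41 genes lies on chromosomes 16 or 17, which hold the trisomic segment. Expression of Brwd1 itself was 93.2, 85.9 and 89.2 CPM (counts scaled to library depth, with TMM factors) in the euploid libraries, 129, 126 and 125 in Ts65Dn, and 145, 146 and 124 in the libraries labelled Ts65Dn;Brwd1+/-. It was therefore not lower in the third group than in Ts65Dn, which goes against the label, although an RNA level does not show from which allele it comes. The summed level of 4 Y-linked genes was 194 to 223 CPM in euploid and 207 to 216 CPM in Ts65Dn, but 0.0557 to 0.149 CPM in the third group, so that male RNA was almost absent there and sex and genotype cannot be told apart in any comparison with it. Xist RNA, made in female cells, was at 0.526 to 1.12 CPM in euploid, 0.79 to 1.1 in Ts65Dn and 1410 to 1980 in the third group. Female RNA was thus almost absent in euploid and Ts65Dn, and no group was the mix of sexes given by the labels. Of 11 tested diencephalon and midbrain markers, 9 were higher and 1 lower in Ts65Dn than in euploid, and the sum over all 12 listed was 9.56 to 12.1 CPM in euploid, 216 to 313 in Ts65Dn and 12 to 16.6 in the third group. Of 12 cortex and telencephalon markers, 11 were lower in Ts65Dn, and their sum was 611 to 751, 254 to 358 and 760 to 897 CPM. Neuron and glia markers shifted too. All 12 markers of GABAergic interneurons were lower in Ts65Dn, with sums of 642 to 696, 182 to 271 and 1110 to 1250 CPM over the genotypes, and 9 of 12 of glutamatergic neurons were lower, with sums of 1200 to 1550, 356 to 812 and 1190 to 1610 CPM. Radial glia markers, 6 higher and 4 lower of 12, summed to 6130 to 6850, 8520 to 10700 and 5170 to 5770 CPM. Astrocyte markers, 6 higher and 1 lower of 11 tested, summed to 3490 to 4070, 4800 to 5300 and 3620 to 4140 CPM over all 12 listed. The part of these shifts in the differences of Wnt genes was not tested, and in bulk cultures fewer cells of a type and less RNA per cell cannot be told apart.

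Across the 36 tested genes, 24 were higher and 6 lower in Ts65Dn than in euploid at an adjusted p under 0.05 (edgeR quasi-likelihood test, Benjamini-Hochberg adjustment over all genes tested). Of all genes tested, 46.7% were called in this comparison, 25.6% as higher and 21.1% as lower. The median log2 fold change was 0.53 over the 36 Wnt genes and 0.04 over all genes. In the Ts65Dn;Brwd1+/- group set against Ts65Dn, 6 were higher and 25 lower, where 58.1% of all genes were called, and the median was -0.69 against 0.00 over all genes. With the same group set against euploid, 6 were higher and 8 lower, where 29.2% of all genes were called, and the median was -0.18 against -0.02. The 3 comparisons share libraries, so they are set side by side and not counted as separate evidence. When the libraries labelled Ts65Dn;Brwd1+/- were kept out of the fit, 28 genes were called between Ts65Dn and euploid, 22 higher and 6 lower. Because the genes were chosen with earlier results of these data known, the shares over all genes only give a scale. They do not test the Wnt genes as a set. A further Wnt list, described below, had a median log2 fold change of 0.09 in Ts65Dn against euploid over 66 tested genes.

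**Figure D1:**
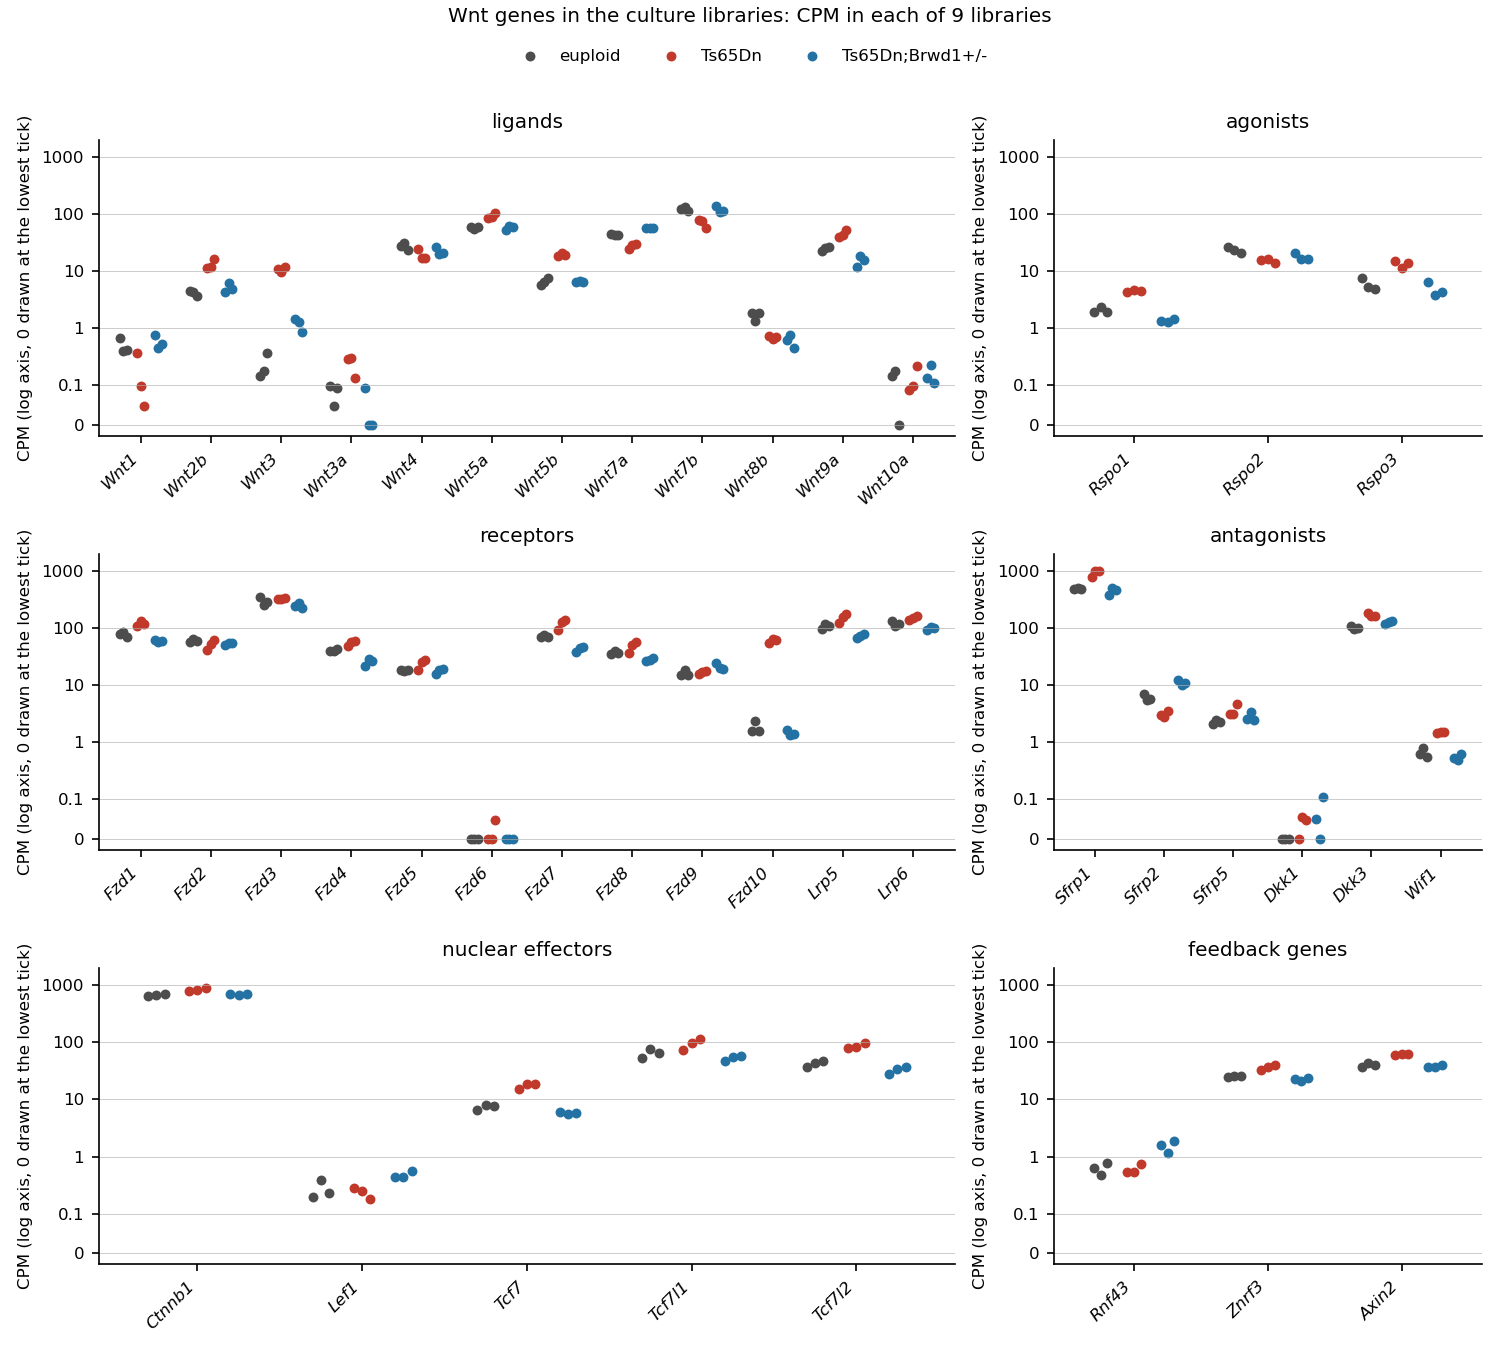
Expression of the 41 Wnt genes, grouped by role, in each of 9 culture libraries; every point is 1 library, the colour is the genotype, and the vertical axis is CPM on a log scale, with libraries at 0 drawn at the lowest tick. The red Ts65Dn points of Fzd10 and Wnt3 sit far above the euploid points, and those of Wnt7a, Wnt7b and Rspo2 sit below them.

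**Figure D2:**
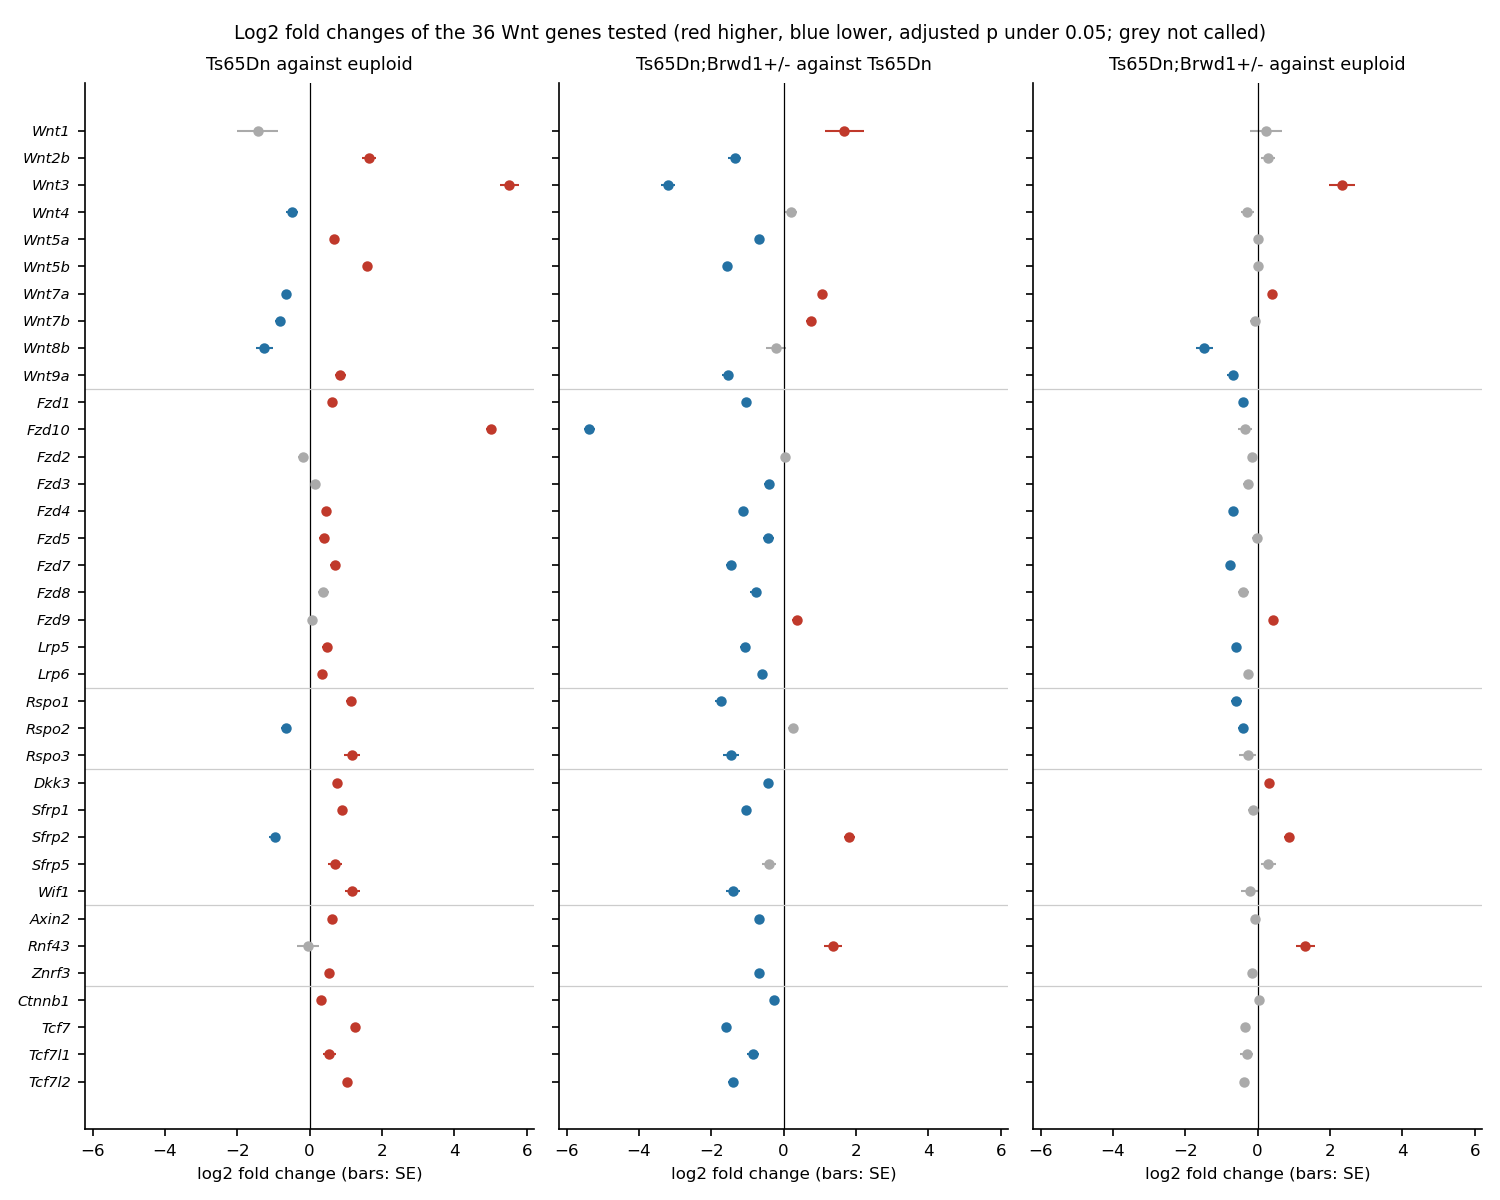
Log2 fold change of each of the 36 tested Wnt genes in the 3 comparisons, with bars of 1 standard error and lines between roles; red is higher, blue lower and grey not called at an adjusted p of 0.05. Fzd10 and Wnt3 lie near 5 in Ts65Dn against euploid, and most of the red points there are blue in the middle panel.

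Differences of at least 1 on the log2 scale were called for 10 of the 36 genes between Ts65Dn and euploid (Wnt2b, Wnt3, Wnt5b, Wnt8b, Fzd10, Rspo1, Rspo3, Wif1, Tcf7 and Tcf7l2), where 14.1% of all genes met this rule. For the Ts65Dn;Brwd1+/- group set against Ts65Dn they were called for 19, against 22.1% of all genes. Against euploid the same libraries differed by this much in 3 genes, Wnt3, Wnt8b and Rnf43, against 8.08% of all genes. Libraries of Ts65Dn and euploid did not overlap for 23 genes that were higher and 6 that were lower, and such separation was found for 56.8% of all genes. From Ts65Dn to the Ts65Dn;Brwd1+/- group 7 were separate and higher and 24 separate and lower (68.4% of all genes), and from euploid to that group 7 and 14 (45.9%).

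Fzd10 was the receptor with the largest difference. Its level was 1.60, 2.37 and 1.59 CPM in the euploid libraries, 54.8, 63.8 and 63.0 CPM in Ts65Dn, and 1.65, 1.34 and 1.38 CPM in the libraries labelled Ts65Dn;Brwd1+/-. The Ts65Dn libraries stood far above the other 6, which overlapped each other. The log2 fold change was 5.02 (SE 0.146, adjusted p = 1.62e-07, edgeR) in Ts65Dn against euploid and -5.37 (SE 0.151, adjusted p = 1.89e-08) in the third group against Ts65Dn. Against euploid the third group differed by -0.35 (SE 0.191, adjusted p = 0.202), which did not pass the threshold. Fzd10 lies on chromosome 5 (mm10, 128600844 to 128604093, plus strand) and is counted over 3250 bp of exon.

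Among ligands, 5 of 10 tested were higher and 4 lower in Ts65Dn, where 25.6 and 21.1% of all genes were. Their median log2 fold change was 0.10. Wnt3, a ligand that signals through β-catenin, was at 0.146, 0.175 and 0.364 CPM in euploid, 10.9, 9.53 and 11.8 CPM in Ts65Dn, and 1.43, 1.28 and 0.859 CPM in the third group. All 3 groups were apart from one another, with the third group between euploid and Ts65Dn. Its log2 fold change was 5.52 (SE 0.268, adjusted p = 7.51e-07) in Ts65Dn against euploid, and the euploid level rested on 3, 4 and 8 reads. The third group was lower than Ts65Dn by 3.20 on the log2 scale and higher than euploid by 2.32 (SE 0.358, adjusted p = 0.00102). Wnt3 lies on chromosome 11 (103774150 to 103817957, plus strand).

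The 250 bases before the annotated starts of Fzd10 (chr5:128600594-128600843), Wnt3 (chr11:103773900-103774149) and the feedback gene Axin2 (chr11:108920099-108920348) are shown because these genes carry the largest receptor difference, the largest ligand difference and the standard readout of the pathway. They were read on the plus strand of GRCm38.p6, the mm10 assembly, and hold no TCF/LEF word that would be in capitals.
Fzd10 upstream: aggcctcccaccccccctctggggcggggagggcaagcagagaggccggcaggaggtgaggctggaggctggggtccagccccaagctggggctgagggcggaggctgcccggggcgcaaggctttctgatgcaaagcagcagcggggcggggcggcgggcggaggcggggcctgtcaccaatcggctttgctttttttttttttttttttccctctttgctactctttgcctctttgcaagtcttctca
Wnt3 upstream: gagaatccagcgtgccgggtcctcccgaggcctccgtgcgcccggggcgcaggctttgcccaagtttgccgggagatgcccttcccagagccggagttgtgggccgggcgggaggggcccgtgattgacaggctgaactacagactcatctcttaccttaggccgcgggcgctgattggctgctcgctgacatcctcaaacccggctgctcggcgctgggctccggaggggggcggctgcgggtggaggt
Axin2 upstream: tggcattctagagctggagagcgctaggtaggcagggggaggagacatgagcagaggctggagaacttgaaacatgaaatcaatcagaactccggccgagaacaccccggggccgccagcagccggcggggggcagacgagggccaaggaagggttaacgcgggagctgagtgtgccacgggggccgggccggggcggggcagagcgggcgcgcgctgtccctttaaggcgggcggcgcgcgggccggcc
The TCF/LEF words searched on both strands were CTTTGAA and its variants ending otherwise, which are CTTTGAT, then CTTTGTA, and lastly CTTTGTT. None of the 3 stretches held any of these words, and their GC content was 64.0, 68.8 and 69.2%. Windows that reach past the gene start did for 2 of these genes: the RefSeq promoter of Wnt3 held 1 match, and so did the ATAC peak at the start of Axin2 in each of the 3 lists and 2 of the 4 SMARCA2/4 peaks of Axin2. RefSeq promoters of 300 bases were found for 27 of the 41 genes, 36 promoters in all, of which 6 held at least 1 of these words (Dkk1 held 2, the others 1), against 16.9% of 32851 promoters. Their median GC content was 68.2%, against 52.7% over all promoters. The absence of a word says only that these letters are not in the window.

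Several other ligands were also higher in Ts65Dn. Wnt2b, one of the Wnts of the cortical hem, was at 4.51, 4.34 and 3.73 CPM in euploid, 11.2, 11.7 and 16.4 CPM in Ts65Dn, and 4.37, 6.18 and 4.89 CPM in the third group. Its Ts65Dn libraries were above the rest, while the other groups overlapped, and the log2 fold changes were 1.64 (SE 0.182, adjusted p = 0.000109) and then -1.36 (SE 0.178). Wnt5b, which mostly signals without β-catenin, read 5.68, 6.40 and 7.56 CPM in euploid, 18.7, 21.0 and 19.0 CPM in Ts65Dn, and 6.60, 6.68 and 6.46 CPM in the third group. These values gave 1.58 (SE 0.111, adjusted p = 6.46e-06) and then -1.57 (SE 0.111). Wnt9a read 23.1, 25.2 and 27.0 CPM in euploid, 40.3, 43.5 and 52.2 CPM in Ts65Dn, and 12.1, 18.8 and 16 CPM in the third group. No groups overlapped, and Wnt9a in the third group was below euploid as well (-0.69, SE 0.154, adjusted p = 0.00773). Wnt5a rose by a smaller amount, 0.68 (SE 0.0895, adjusted p = 0.000319), from a euploid mean of 58.4 CPM (SD 3.68, n = 3) to 93.5 (SD 8.28).

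The 2 ligands with the highest euploid levels per kilobase of exon moved the other way. Wnt7a, a ligand of cortical progenitors and neurons that also acts on brain vessels, was at 44.4, 43.6 and 43.9 CPM in euploid, 24.9, 28.6 and 29.9 CPM in Ts65Dn, and 58.1, 57.6 and 56.8 CPM in the third group. The 3 groups were fully separated, with log2 fold changes of -0.66 (SE 0.0766, adjusted p = 0.000147) in Ts65Dn against euploid, 1.05 (SE 0.0766) in the third group against Ts65Dn and 0.39 (SE 0.0753, adjusted p = 0.00366) in the third group against euploid. Wnt7b, its closest relative, fell from a euploid mean of 124 CPM (SD 9.98) to 70.3 (SD 12.2) and was at 119 (SD 15.6) in the third group, with a log2 fold change of -0.82 and then 0.76. Wnt8b, another hem ligand, was at 1.89, 1.32 and 1.82 CPM in euploid, 0.735, 0.642 and 0.706 CPM in Ts65Dn, and 0.624, 0.779 and 0.448 CPM in the third group. It was lower than euploid in both trisomic groups, with log2 fold changes of -1.26 (SE 0.237, adjusted p = 0.00221) and -1.47 (SE 0.244, adjusted p = 0.00154), and the trisomic groups overlapped each other. Markers of the cortical hem and Cajal-Retzius cells summed to 261 to 278 CPM in euploid, 258 to 274 in Ts65Dn and 293 to 304 in the third group. That even sum hides changes in both directions. Of 10 such markers tested, 4 were higher and 5 lower in Ts65Dn than in euploid, with log2 fold changes from -2.33 to 7.03.

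Wnt1, the ligand of the midbrain and hindbrain boundary, was at 0.680, 0.395 and 0.410 CPM in euploid, 0.367, 0.0988 and 0.0441 CPM in Ts65Dn, and 0.758, 0.445 and 0.523 CPM in the third group. The Ts65Dn libraries were below the others but rested on 9, 2 and 1 reads. The difference from euploid was -1.44 (SE 0.565, adjusted p = 0.0594), and it was past the threshold with the replicate number as a block over all 9 libraries (-1.5, adjusted p = 0.0224), without the filter on low counts (0.0373) and by DESeq2 (0.0475). With that block and only the 2 genotypes fitted, no Wnt gene gained a call. Without Ts65Dn replicate 1 the difference of Wnt1 was -2.71 (adjusted p = 0.00584), and over all fits that left out 1 library it ran from -2.71 to -0.99. The third group was higher than Ts65Dn by 1.68 (SE 0.544, adjusted p = 0.0227). That last call went when replicate 2 (1.43, adjusted p = 0.0716) or 3 (0.0623) of Ts65Dn, or replicate 1 of the third group (0.0832), was left out. Wnt4 was called as lower in Ts65Dn (-0.48, adjusted p = 0.0417) with libraries that overlapped, and the call did not hold without replicate 1 (adjusted p = 0.102) or 2 (0.141) of euploid, or 2 (0.132) or 3 (0.0957) of Ts65Dn. Wnt3a and Wnt10a, which were not tested, stayed at or below 0.296 and 0.223 CPM in every library. Without the filter on low counts Wnt3a was called as lower in the third group than in Ts65Dn (-2.75, SE 0.920, adjusted p = 0.0194), on 7, 6 and 3 reads in Ts65Dn against 2, 0 and 0 in the third group.

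Per kilobase of exon, which allows levels of different genes to be compared, the 12 ligands summed to 65.1 CPM per kb (SD 1.96, n = 3) in euploid, 67.7 (SD 1.17) in Ts65Dn and 64.5 (SD 2.73) in the third group, and libraries of the 3 groups overlapped. The make-up of that sum differed. In euploid the order began with Wnt7b (25.4 CPM per kb) and Wnt7a (13.9), followed by Wnt9a (7.53) and Wnt5a (7.47), whose libraries overlapped, and then Wnt4 (6.52), which overlapped Wnt5a, and Wnt5b (2.47), which was below them all. Wnt7b made up 39.0, 40.9 and 37.0% of ligand RNA in euploid, 24.2, 22.9 and 16.6% in Ts65Dn, and 41.3, 34.7 and 36.6% in the third group. The share of Wnt7a went from a mean of 21.3% to 12.9% and 28.2% over the same groups, whereas Wnt9a went from 11.6% to 20.1% and 7.32%, Wnt5b from 3.80% to 10.9% and 3.85%, and Wnt3 from 0.115% to 5.16% and 0.597%. Wnt7a, next after Wnt7b in euploid, came behind Wnt9a and Wnt5a in Ts65Dn. These shares were not tested, and a share falls whenever another gene of the sum rises.

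**Figure D3:**
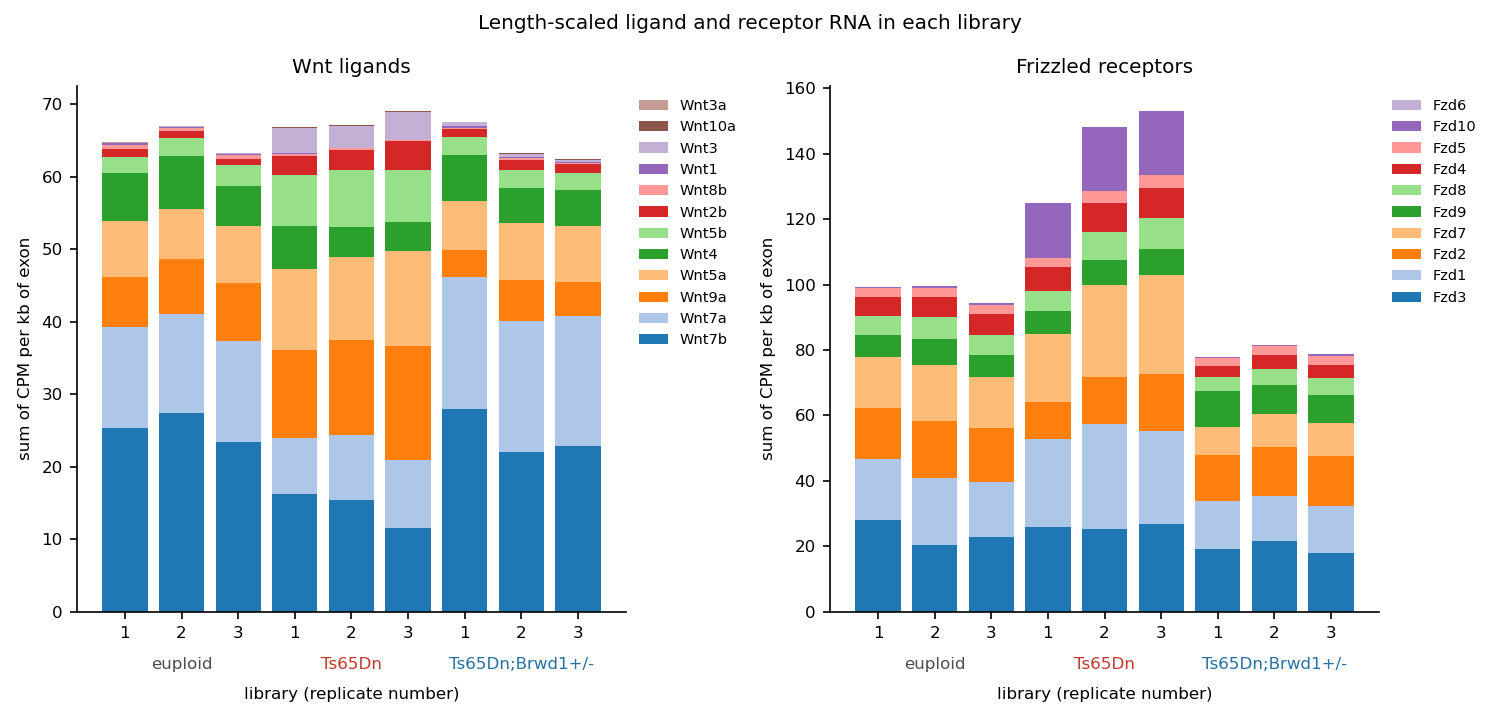
Length-scaled RNA of the ligands (left) and of the Frizzled receptors (right) in each library, as stacked CPM per kb of exon, with libraries ordered by genotype. The height of the ligand bars differs little, at means of 65.1, 67.7 and 64.5, while the Frizzled bars are highest in Ts65Dn (142 against 97.7 and 79.4) and show a Fzd10 block that is barely seen in the other genotypes.

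Of 11 Frizzled receptors and co-receptors tested in Ts65Dn, where 25.6% of all genes were called as higher, 7 were higher, 4 did not pass and none were lower (edgeR, with 8 higher and 0 lower at an unadjusted p under 0.05, and 7 and 0 by DESeq2), with a median log2 fold change of 0.40. Of the 7 calls, those of Lrp5, Lrp6 and Fzd5 did not hold under every setting. In the third group against Ts65Dn, 9 were lower and 1, Fzd9, was higher, with a median of -0.77, where 30.5 and 27.6% of all genes were lower and higher. Against euploid the third group had 4 receptors lower (Fzd1, Fzd4, Fzd7 and Lrp5) and Fzd9 higher.

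Fzd1 was at 78.1, 86.4 and 70.6 CPM in euploid, 111, 135 and 119 CPM in Ts65Dn, and 61.9, 57.5 and 59.5 CPM in the third group. Fzd7, its close relative, was at 71.2, 77.9 and 71.6 CPM, then 94.4, 127 and 138 CPM, then 38.7, 46.0 and 46.2 CPM. For both genes the 3 groups were separate, with Ts65Dn highest and the third group lowest. The log2 fold changes against euploid were 0.63 (SE 0.0943, adjusted p = 0.000637) and 0.71 (SE 0.132, adjusted p = 0.00213) in Ts65Dn, and -0.40 (SE 0.0947, adjusted p = 0.011) and -0.75 (SE 0.134, adjusted p = 0.00224) in the third group.

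Fzd4, also the receptor of Norrin in retinal vessels, followed the same order, with 39.4, 40.3 and 43.9 CPM in euploid, 48.9, 58.7 and 61.1 CPM in Ts65Dn, and 21.9, 29.0 and 26.9 CPM in the third group. So did the co-receptor Lrp5, with 97.1, 121 and 111 CPM, then 123, 161 and 175 CPM, then 66.4, 74.3 and 78.3 CPM. Neither gene had overlapping groups, and the log2 fold changes from Ts65Dn to the third group were -1.12 (SE 0.118) and -1.07 (SE 0.134). The rise of Lrp5 in Ts65Dn (0.48, SE 0.133, adjusted p = 0.0141) was no longer called when replicate 1 (0.40, adjusted p = 0.0583) or 3 (0.44, 0.0525) of euploid was left out. Endothelial and pericyte markers summed to 139 to 162 CPM in euploid, 736 to 969 in Ts65Dn and 137 to 187 in the third group, although 7 of 12, the endothelial markers Pecam1 and Cldn5 among them, stayed under 1 CPM in every library, and 1 had no read at all. Of the 6 tested, 3 were higher in Ts65Dn than in euploid and 3 were not called. Their median log2 fold change was 0.24, with a range of -0.78 to 3.18.

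Smaller differences were found for the rest of the family. Lrp6 (0.33, adjusted p = 0.0148) and Fzd5 (0.40, adjusted p = 0.0389) were called as higher in Ts65Dn, but with only those 2 genotypes fitted and a replicate block the adjusted p was 0.0588 and 0.0649. Lrp6 was also lost without euploid replicate 2 (adjusted p = 0.0564) or euploid replicate 3 (0.0803), and Fzd5 with at least 10 counts in every library (0.0609), with only the 2 genotypes fitted (0.0747) and in the fits without any one of euploid replicates 1, 2 and 3, Ts65Dn replicates 2 and 3, or the 3 libraries of the third group (adjusted p 0.0514 to 0.123). Fzd8 had 0.38 (adjusted p = 0.0544) without and 0.36 (adjusted p = 0.0318) with a replicate block over all 9 libraries, but did not pass with that block and only the 2 genotypes fitted (0.32, 0.093). It passed without Ts65Dn replicate 1 (0.55, 0.00138) and without the filter on low counts (0.0368). Fzd3, a receptor known for axon guidance, had means of 304, 334 and 251 CPM in euploid, Ts65Dn and the third group, and Fzd2 means of 60.1, 52.7 and 54.2 CPM, and neither was called between Ts65Dn and euploid. Fzd9 was at 16.2, 17 and 21.7 CPM, and its rise in the third group against euploid (0.42, adjusted p = 0.0195) was lost without euploid replicate 1 (adjusted p = 0.069), euploid replicate 3 (0.102) or the first library of that group (0.103). Fzd6 had 1 read in all 9 libraries together.

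Length-scaled Frizzled RNA came to 97.7 CPM per kb (SD 3.01) in euploid, 142 (SD 15.2) in Ts65Dn and 79.4 (SD 1.97) in the third group. Fzd10 made up 0.496, 0.733 and 0.520% of it in euploid, 13.5, 13.3 and 12.7% in Ts65Dn, and 0.652, 0.504 and 0.540% in the third group. It was the lowest Frizzled with more than a stray read in euploid, at 0.571 CPM per kb, and came just behind Fzd1, Fzd7 and Fzd3 in Ts65Dn, at 18.6. Libraries of Fzd3, Fzd1 and Fzd2, the highest in euploid at 23.7, 18.7 and 16.4 CPM per kb, overlapped with the next lower gene in each case.

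All 3 R-spondins were called in Ts65Dn, with 2 higher and 1 lower, where 25.6 and 21.1% of all genes were. Rspo1 was at 1.94, 2.32 and 1.91 CPM in euploid, 4.41, 4.79 and 4.55 CPM in Ts65Dn, and 1.34, 1.28 and 1.46 CPM in the third group. Rspo3 was at 7.77, 5.31 and 4.87 CPM, then 15.3, 11.4 and 13.7 CPM, then 6.56, 3.84 and 4.33 CPM. Both were separate from euploid in Ts65Dn, by 1.15 (SE 0.134, adjusted p = 0.000157) and 1.18 (SE 0.219, adjusted p = 0.00207), and fell by 1.74 and 1.45 in the third group against Ts65Dn. Rspo2 was lower in Ts65Dn, with means of 24.1 CPM (SD 2.93), 15.2 (SD 1.34) and 18.1 (SD 2.50), a log2 fold change of -0.66 (SE 0.125, adjusted p = 0.00214). The share of Rspo2 in length-scaled R-spondin RNA was 61.2% in euploid, 30.7% in Ts65Dn and 60.9% in the third group, and that of Rspo3 was 24.9, 44.9 and 26.9%. Rspo1 was below euploid in the third group (-0.59, adjusted p = 0.0169), a call lost without euploid replicate 2 (-0.50, adjusted p = 0.0794). For Rspo2 the same call (-0.41, adjusted p = 0.0307) was lost without euploid replicate 1 (adjusted p = 0.109), euploid replicate 2 (0.0623), or replicate 2 (0.0876) or 3 (0.101) of that group.

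Secreted antagonists were called in all 5 tested cases, with 4 higher and 1 lower in Ts65Dn, where 25.6 and 21.1% of all genes were. Sfrp1, the most abundant of them, was at 499, 515 and 492 CPM in euploid, 806, 1010 and 995 CPM in Ts65Dn, and 390, 507 and 475 CPM in the third group. Its Ts65Dn libraries stood above the other 6, by a log2 fold change of 0.90 (SE 0.120, adjusted p = 0.000339) over euploid, and the third group against Ts65Dn gave -1.03 (SE 0.120). Wif1, which binds Wnt ligands outside the cell, was at 0.631, 0.790 and 0.546 CPM, then 1.47, 1.53 and 1.5 CPM, then 0.535, 0.501 and 0.635 CPM, a rise of 1.18 (SE 0.200, adjusted p = 0.00122) followed by -1.40. Sfrp2 ran against the rest, with 7.09, 5.61 and 5.87 CPM in euploid, 3.06, 2.82 and 3.62 CPM in Ts65Dn, and 12.6, 9.97 and 10.9 CPM in the third group. The 3 groups were separate, and the third was above euploid by 0.86 (SE 0.137, adjusted p = 0.00124).

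Dkk3, a divergent Dickkopf protein, had means of 102 CPM (SD 4.79), 172 (SD 10.9) and 127 (SD 7.71), with log2 fold changes of 0.75 and then -0.44. Sfrp5 was higher in Ts65Dn by 0.70 (adjusted p = 0.0171), a call that went without replicate 1 (0.65, adjusted p = 0.0586) or 3 (0.65, 0.0554) of euploid, or 3 (0.49, 0.0655) of Ts65Dn. Dkk1, the classical blocker of Lrp6, had at most 3 reads in any library. The length-scaled sum of the 6 antagonists was 150 CPM per kb (SD 2.53) in euploid, 269 (SD 23) in Ts65Dn and 149 (SD 15.5) in the third group, and Sfrp1 made up 76.7, 79.3 and 69.9% of it.

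Axin2, a target gene that in turn limits the pathway, was at 37.2, 43.6 and 40.3 CPM in euploid, 61.2, 61.7 and 63.1 CPM in Ts65Dn, and 37.5, 37.5 and 40.4 CPM in the third group. The Ts65Dn libraries were above the other 6, which overlapped. Its log2 fold change was 0.62 (SE 0.0744, adjusted p = 0.000186) in Ts65Dn against euploid, -0.69 (SE 0.0746, adjusted p = 3.56e-05) in the third group against Ts65Dn, and -0.07 (SE 0.0748, adjusted p = 0.531) in the third group against euploid. Znrf3 showed 0.53 (SE 0.0815) and -0.68 (SE 0.0818) in the first 2 comparisons, both called, from means of 25.3, 36.4 and 22.8 CPM. Rnf43, which carries out the same task as Znrf3, did not follow it. It was at 0.631, 0.482 and 0.774 CPM in euploid, 0.531, 0.543 and 0.750 CPM in Ts65Dn, and 1.61, 1.17 and 1.87 CPM in the third group, so that only the third group stood apart, by 1.32 (SE 0.260, adjusted p = 0.00396) over euploid.

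Nuclear effectors were higher in Ts65Dn in all 4 tested cases, where 25.6% of all genes were called as higher. All 4 were lower in the third group than in Ts65Dn, where 30.5% of all genes were called as lower. Ctnnb1 was at 660, 674 and 702 CPM in euploid, 799, 837 and 900 CPM in Ts65Dn, and 711, 687 and 695 CPM in the third group. That is a log2 fold change of 0.32 (SE 0.0784, adjusted p = 0.00831) and then -0.28 (SE 0.0783, adjusted p = 0.0117), the smallest called change of the list in Ts65Dn. Tcf7 was at 6.55, 7.94 and 7.65 CPM, then 15.2, 19.0 and 18.7 CPM, then 6.02, 5.51 and 5.90 CPM. Tcf7l2, known also as a marker of the developing thalamus, was at 37.3, 42.8 and 47.3 CPM, then 81.0, 82.4 and 99.4 CPM, then 27.8, 34.3 and 36.7 CPM. Both had Ts65Dn above all other libraries, with 1.25 (SE 0.116, adjusted p = 3.72e-05) and 1.05 (SE 0.128, adjusted p = 0.000203) over euploid. Tcf7l1, which acts mainly as a repressor, had overlapping libraries and a log2 fold change of 0.54 (SE 0.175, adjusted p = 0.0279). Its call went without replicate 1 (0.41, adjusted p = 0.104) or 3 (0.50, 0.0827) of euploid, 2 (0.53, 0.0651) or 3 (0.38, 0.0698) of Ts65Dn, or 2 (0.51, 0.0521) of the third group, and with only the 2 genotypes fitted (0.51, 0.0623).

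Between the third group and euploid no nuclear effector passed the threshold (edgeR quasi-likelihood test, with 2 of 4 lower at an unadjusted p under 0.05, and 1 lower by DESeq2). Tcf7l2 was close to it (-0.37, adjusted p = 0.0572) and passed with only the 2 genotypes fitted (0.0298), without the filter on low counts (0.023), with DESeq2 size factors (0.0486) and by DESeq2 (0.0395). It also passed without replicate 1 of euploid (0.0426), 3 of Ts65Dn (0.0224) or 3 of the third group (0.0374), and Tcf7 (-0.34, adjusted p = 0.0622) without replicate 1 of euploid (0.0426) or 1 of Ts65Dn (0.0374). Lef1 was at 0.194, 0.395 and 0.228 CPM in euploid, 0.286, 0.247 and 0.177 CPM in Ts65Dn, and 0.446, 0.445 and 0.560 CPM in the third group. The third group lay above the other 6 libraries, but at 4 to 15 reads per library, and without the filter on low counts its log2 fold change was -0.24 (adjusted p = 0.822) in Ts65Dn against euploid and 0.81 (adjusted p = 0.29) in the third group against euploid. Part of Ctnnb1 (759 bp) overlaps Ulk4 on the opposite strand and part of Wnt7b (324 bp) overlaps AU022754, and whether the counting used strand is not stated. Ulk4 was at 17.6, 31.8 and 13.3 CPM over the 3 genotypes and AU022754 at 4.67, 2.77 and 3.62 CPM, both small beside their partners.

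A further list of 76 Wnt pathway genes, 66 of them tested, had 24 genes higher and 21 lower in Ts65Dn than in euploid and a median log2 fold change of 0.09. That is 68.2% called, where 46.7% of all genes tested were called, 25.6% as higher and 21.1% as lower. In the third group against Ts65Dn, 27 were higher and 23 lower, with a median of 0.03, or 75.8% called against 58.1% of all genes (27.6% higher and 30.5% lower). The following counts by role are to be read against those shares, and no difference between roles was tested. Of 11 other Wnt receptors and co-receptors, 10 were higher in Ts65Dn, and of the same 11, 9 were lower and 2 higher in the third group than in Ts65Dn. Of 13 genes of Dishevelled and the β-catenin destruction complex, 7 were lower and 1 higher in Ts65Dn, and 9 were higher and 1 lower in the third group than in Ts65Dn.

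Among genes of ligand export, Wls, the carrier that brings Wnts to the cell surface, was at 345, 304 and 349 CPM in euploid, 1170, 1230 and 1410 CPM in Ts65Dn, and 122, 174 and 169 CPM in the third group. All groups were separate, with 1.94 (SE 0.143, adjusted p = 8.71e-06) in Ts65Dn over euploid and -1.10 (SE 0.140, adjusted p = 0.000343) in the third group against euploid. Meningeal and fibroblast markers, by way of comparison, summed to 360 to 412 CPM in euploid, 624 to 861 in Ts65Dn and 254 to 304 in the third group. That list did not move as one, with 6 higher and 4 lower of 10 tested in Ts65Dn: Col1a1 had a log2 fold change of 2.40 and Ogn 1.01, but Dcn -3.23 and Col3a1 -1.32. Choroid plexus markers summed to 186 to 791 CPM in euploid, where replicate 2 was the highest, 223 to 271 in Ts65Dn and 58.4 to 67.7 in the third group. Of the 11 tested, 4 were higher and 3 lower in Ts65Dn than in euploid, and 0 higher and 9 lower in the third group than in euploid, with a median log2 fold change of -1.71. No marker of that list was at 0 in every library, and Kl and Prlr were under 1 CPM throughout. Folr1, with means of 34.4, 122 and 9.72 CPM over the 3 genotypes, and Calml4, with 17.2, 45.8 and 5.22 CPM, followed the order of Wls. The choroid plexus list as a whole did not. Its log2 fold changes in Ts65Dn against euploid ran from -4.31 to 1.82, with a median of -0.04 and 4 of 11 not called. The part of these cells in the level of Wls was not tested. Porcn, which attaches the lipid to Wnts, did not pass the threshold (-0.09, adjusted p = 0.402), and Notum, which removes that lipid, was higher in Ts65Dn by 1.24 (SE 0.323, adjusted p = 0.0108). The ligand Wnt16 was at 0.0971, 0.0877 and 0.00 CPM in euploid, 2.82, 2.12 and 3.18 CPM in Ts65Dn, and 0.0446, 0.111 and 0.0747 CPM in the third group, on 2, 2 and 0 reads in euploid.

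Other receptors included Lgr6 (2.64, SE 0.269) and Ror2 (1.93, SE 0.204), the receptors of R-spondins and of Wnt5a, both higher in Ts65Dn. Ror2 was higher still in the third group, by 2.39 (SE 0.198, adjusted p = 3.03e-05) over euploid. Lgr5 did not pass in Ts65Dn against euploid (-0.36, adjusted p = 0.328) and was higher in the third group than in euploid by 1.28 (SE 0.242, adjusted p = 0.00309). In the destruction complex, the scaffold Apc had a log2 fold change of -1.10 (SE 0.181, adjusted p = 0.00108) in Ts65Dn and the kinase Gsk3b -0.45 (SE 0.100, adjusted p = 0.00504), both called in the other direction in the third group against Ts65Dn. Dvl1 did not pass (-0.26, adjusted p = 0.0758). The antagonist Dkk2 (-2.20, SE 0.299), the corepressor Tle2 (-1.46, SE 0.241) and Dact1 and Dact2, which bind Dishevelled (-1.39, SE 0.207, and -1.04, SE 0.304), were also lower in Ts65Dn.

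Target genes did not share a pattern. All 9 tested passed in Ts65Dn, 5 higher and 4 lower, where 25.6 and 21.1% of all genes did. The lower ones were Dact1 and Dact2, given above, Nkd2 (-0.56, adjusted p = 0.00412) and the growth regulator Myc. Myc was at 21.4, 25.1 and 22.6 CPM in euploid, 18.8, 19.7 and 18.6 CPM in Ts65Dn, and 42.5, 35.4 and 39.0 CPM in the third group, so that the groups were separate, with -0.28 in Ts65Dn against euploid (adjusted p = 0.0305) and 0.76 in the third group against euploid (adjusted p = 0.00023). Nkd1, a feedback inhibitor, was at 8.40, 10.4 and 8.15 CPM in euploid, 20.7, 23.3 and 22.3 CPM in Ts65Dn, and 23.6, 20.7 and 22.6 CPM in the third group. Unlike Axin2, it stood above euploid in both trisomic groups, by 1.29 (SE 0.109, adjusted p = 2.02e-05) and 1.31 (SE 0.109, adjusted p = 3.03e-05), and between them the difference was 0.01 (SE 0.103, adjusted p = 0.917). The target Sp5 (1.78, then -0.29 with adjusted p = 0.466), and Apcdd1 from the list of antagonists (0.93, then -0.08 with adjusted p = 0.487), also passed against euploid and not between the trisomic groups. Tnfrsf19 was higher in Ts65Dn by 0.36 (SE 0.105, adjusted p = 0.0192), with -0.13 (adjusted p = 0.316) between the trisomic groups. Cd44, an adhesion receptor for hyaluronan, was at 55.9, 39.6 and 46.9 CPM in euploid, 101, 99.7 and 117 CPM in Ts65Dn, and 30.9, 40.1 and 40.7 CPM in the third group. Like Axin2 it was higher in Ts65Dn than in euploid (1.16, SE 0.141, adjusted p = 0.000203) and lower in the third group than in Ts65Dn (-1.51, SE 0.143), and it was not called in the third group against euploid (-0.35, adjusted p = 0.0937). Ccnd1, a cell cycle gene, had 1.80 (SE 0.108) and then -1.15 (SE 0.106), and the 12 cell cycle markers summed to 272 to 289 CPM in euploid, 386 to 442 in Ts65Dn and 646 to 676 in the third group.

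**Figure D4:**
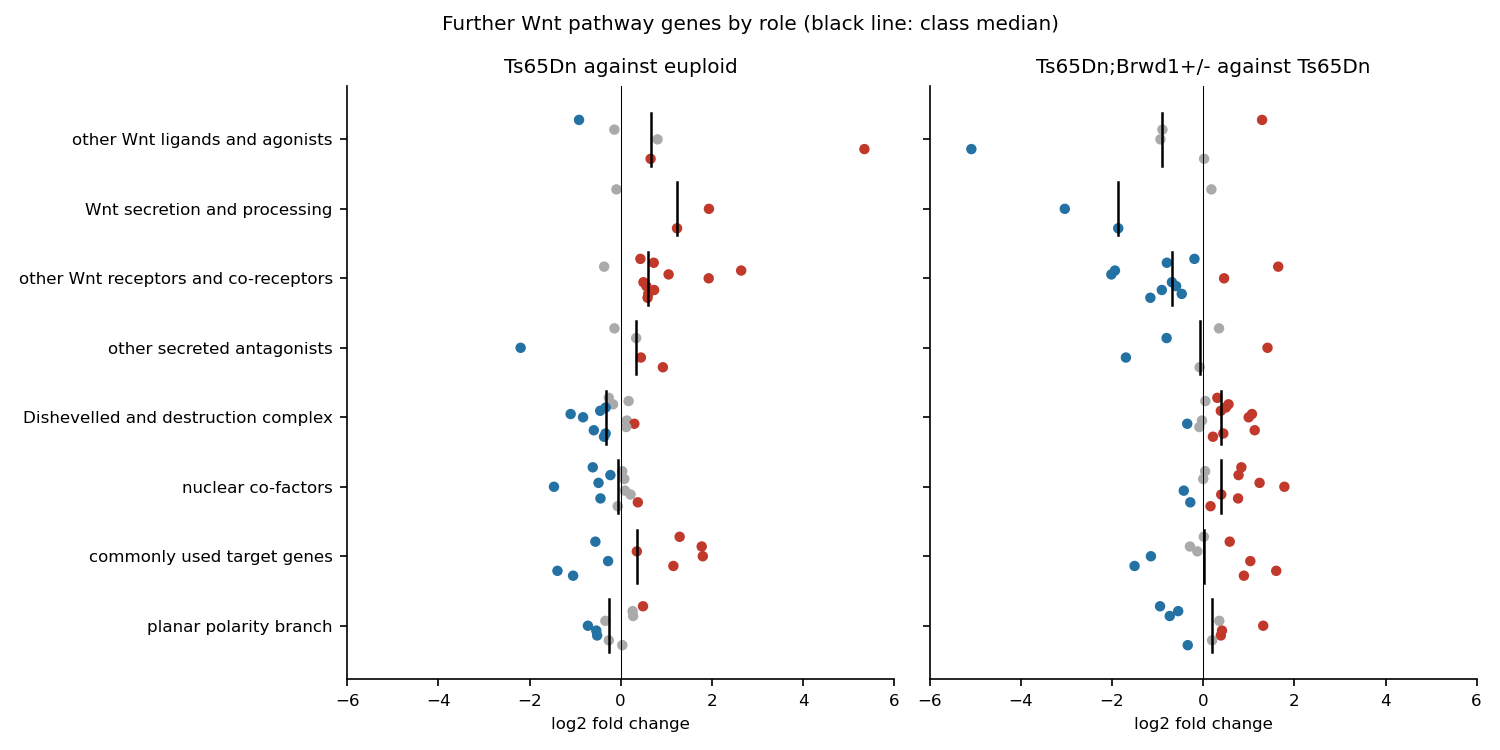
Log2 fold change of the 66 tested genes of the further pathway list, by role, in Ts65Dn against euploid (left) and for the Ts65Dn;Brwd1+/- group set against Ts65Dn (right); each point is a gene, red is higher, blue lower and grey not called, and black lines are medians. Other receptors lie mostly to the right in the first panel (10 of 11 called as higher), and the destruction complex mostly to the left (7 of 13 called as lower).

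In adult hippocampus, the euploid SMARCA2/4 list had 21 peaks that named 14 of the 41 Wnt genes (34.1%), and 29.5% of all protein-coding genes were named in it. The Ts65Dn list named none of the 41 and the Ts65Dn;Brwd1+/- list 2, Wnt10a and Lrp6, where 3.26 and 3.73% of protein-coding genes were named. The lists differ in size, with 22667, 1290 and 1873 peaks, and each is a single list per genotype without replicates, so the differences have no error and were not tested. Of the 14 genes, 5 were ligands (Wnt5a, Wnt5b, Wnt7a, Wnt7b and Wnt10a), 2 receptors (Fzd8 and Lrp6), 2 R-spondins (Rspo2 and Rspo3), and 1 each Dkk3 and Tcf7l1, and all 3 feedback genes were named.

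The feedback genes held 9 of the 21 peaks. Axin2 had 4, and 2 of them lay in its untranslated first exons (chr11:108920744-108920849, with a fold enrichment of 3.77 and a q-value of 0.00668, and chr11:108921739-108921858, with 3.48 and 0.0199). Znrf3 also had 4 peaks, among them the highest of all 21, with a fold enrichment of 5.88 in an intron (chr11:5354761-5354937, q-value 3.47e-08). Rnf43 had 1 intronic peak (3.27, q-value 0.054). At a q-value under 0.05, 13 of the 14 genes remained in the euploid list and neither gene of the Ts65Dn;Brwd1+/- list, whose peaks had q-values of 0.831 and 0.0895. Over all peaks, 87.8% of the euploid, 31.8% of the Ts65Dn and 58.2% of the Ts65Dn;Brwd1+/- list had a q-value under 0.05.

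**Figure D5:**
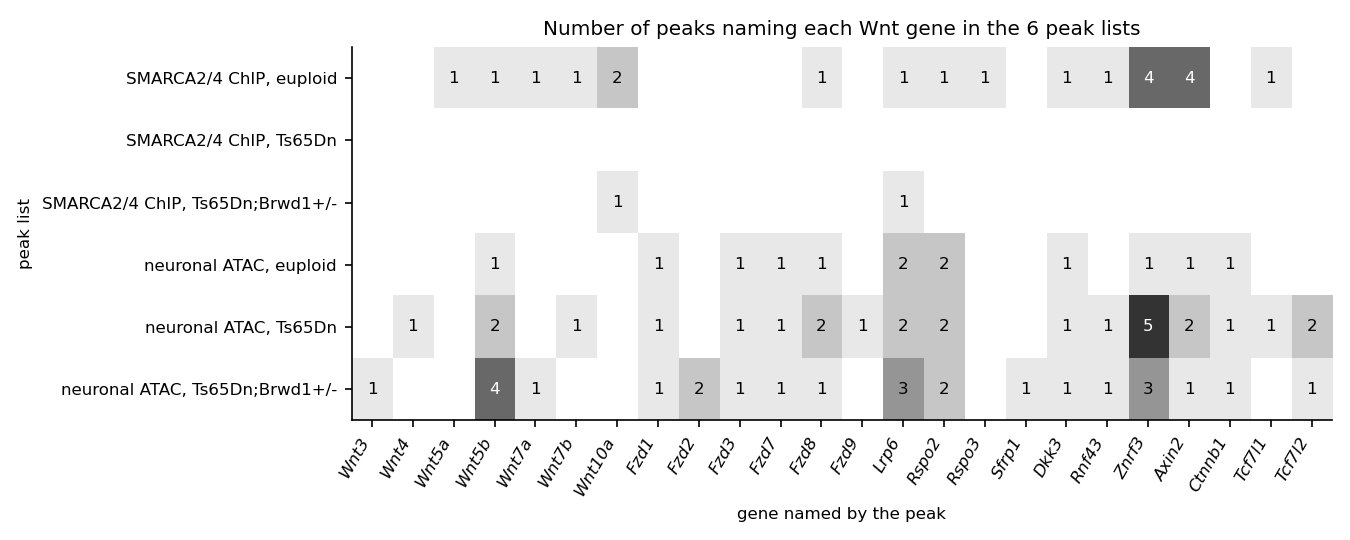
Number of peaks that name each Wnt gene (columns) in each of the 6 deposited peak lists (rows), with darker squares for more peaks and the number written in each; the 17 genes without any peak are left out. The euploid SMARCA2/4 row has 21 peaks and the other SMARCA2/4 rows 0 and 2, while the ATAC rows hold 13, 27 and 26 peaks.

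Neuronal ATAC-seq named 11 of the 41 genes in the euploid list, 17 in the Ts65Dn list and 17 in the Ts65Dn;Brwd1+/- list, or 26.8, 41.5 and 41.5% of them, where 41.4, 52.2 and 52.1% of protein-coding genes were named. The same 11 genes were in all 3 lists: Wnt5b, Fzd1, Fzd3, Fzd7, Fzd8, Lrp6, Rspo2, Dkk3, Znrf3, Axin2 and Ctnnb1. Rnf43 and Tcf7l2 were named in both trisomic lists and not in the euploid list. Wnt4, Wnt7b, Fzd9 and Tcf7l1 were named in the Ts65Dn list alone, and Wnt3, Wnt7a, Fzd2 and Sfrp1 in the Ts65Dn;Brwd1+/- list alone. The euploid list held 15521 peaks, and the others 29195 and 30244, and the part of list length in which genes were named was not tested. Of the 13 euploid ATAC peaks of these genes, 13 overlapped a peak of each trisomic list, where 96.7 and 96.2% of all euploid ATAC peaks did.

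Fold enrichment at promoters that were open in all 3 lists has no error, since each list is single. The start of Axin2 had 4.49, 5.25 and 4.21 for euploid, Ts65Dn and Ts65Dn;Brwd1+/-, and that of Ctnnb1 4.51, 6.78 and 5.08. The start of Fzd1 had 4.12, 5.35 and 4.26, and that of Fzd3 4.02, 5.03 and 3.93. The starts of Lrp6 (3.86, 6.62 and 5.19) and Znrf3 (5.04, 6.33 and 5.37) followed, whereas that of Rspo2 had 3.97, 3.17 and 3.44. Ts65Dn had the highest of the 3 values at 6 of these 7 starts and the lowest at Rspo2, and the median over all peaks of a list was also highest there, at 4.19 against 4.01 and 3.6. Fzd10, with the largest receptor difference in cultures, had no peak in any of the 6 lists, and neither had Wnt2b, Rspo1, Wif1 or Tcf7. Of all 41 genes, 17 had none. The ATAC peak of Wnt3 was intronic (chr11:103790182-103790479, with a fold enrichment of 2.75).

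Few euploid SMARCA2/4 peaks of Wnt genes overlapped open chromatin. Overlap with the other SMARCA2/4 lists was rare too, as it was for all euploid peaks. Of the 21 peaks, 0 overlapped a SMARCA2/4 peak of the Ts65Dn list and 1, at Wnt10a, a peak of the Ts65Dn;Brwd1+/- list, against 2.65 and 3.80% of all euploid peaks. With an euploid, Ts65Dn or Ts65Dn;Brwd1+/- ATAC peak, 1, 2 and 3 of the 21 overlapped, against 26.4, 44.6 and 43.9% of all euploid SMARCA2/4 peaks. These were a peak before the start of Znrf3 (chr11:5445140-5445234) in all 3 ATAC lists, the Znrf3 intron peak in both trisomic ATAC lists, and an intron of Wnt7a (chr6:91372109-91372204) in the Ts65Dn;Brwd1+/- list, by 31 bp.

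The sequences of both intronic sites, where SMARCA2/4 binding in euploid met open chromatin in a trisomic list, and of the euploid ATAC peak before Fzd7 (chr1:59481944-59482155), are shown on the plus strand of GRCm38.p6, with matches to the 4 TCF/LEF words in capitals.
Znrf3 intron peak: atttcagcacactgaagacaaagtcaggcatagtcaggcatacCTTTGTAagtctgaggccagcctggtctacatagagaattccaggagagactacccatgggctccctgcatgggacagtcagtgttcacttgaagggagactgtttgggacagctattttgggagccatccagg
Wnt7a intron peak: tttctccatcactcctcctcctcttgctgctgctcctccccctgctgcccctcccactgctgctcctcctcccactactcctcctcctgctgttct
Fzd7 upstream ATAC peak: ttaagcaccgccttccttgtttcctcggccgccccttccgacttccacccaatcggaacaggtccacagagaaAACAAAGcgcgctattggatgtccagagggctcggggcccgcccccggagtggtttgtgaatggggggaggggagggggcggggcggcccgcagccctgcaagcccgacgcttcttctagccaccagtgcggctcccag
The Znrf3 peak held 1 match, the Fzd7 peak 1 on the minus strand, and the Wnt7a peak, rich in repeated triplets, none. The Fzd7 peak was present in all 3 ATAC lists, with a fold enrichment of 3.43, 3.86 and 3.58.

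In windows of 300 bases on peak centres, 3 of 21 euploid SMARCA2/4 peaks of Wnt genes held at least 1 of the 4 words, against 14.7% of all peaks in that list. For ATAC-seq the numbers were 3 of 13, 6 of 27 and 6 of 26 for the 3 genotypes in the same order, against 9.91, 12.4 and 12.6% of all peaks. Several of these peaks are the same site in different lists, so the counts are not independent, and they were not tested.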

How the data were processed

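RNA-seq counts were deposited as 1 file per library. The authors aligned reads with HISAT2 to mm10 and state featureCounts for counting, while the files end with 5 summary lines in the form of htseq-count. Those lines, 37.45 to 40.04% of each file's total, were left out. Groups were taken from the sample labels. Genes that passed filterByExpr were scaled by TMM and tested with edgeR 4.0.16 (limma 3.58.1, R 4.3.3) by the quasi-likelihood test over all 9 libraries at 0.05 after Benjamini-Hochberg adjustment. The study used DESeq2 with RUVr, whose settings are not given in the sources used here, and DESeq2 1.42.0 served as an alternative. CPM per kb used exon lengths of GENCODE M21.

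Same-numbered euploid and Ts65Dn libraries deviated together (correlations 0.129, 0.206 and 0.263), so numbers were taken as pairs in that comparison. The main fit has no block, and for that comparison blocked values stand beside each call they change.

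Peak lists were deposited with MACS fold enrichment, a ratio of ChIP or ATAC signal over background, and a q-value, with 1 list per genotype and assay. How replicates were combined and the depth are not given in the sources used here. Peaks were given to genes by the deposited gene names. Sequences came from GRCm38.p6, and promoters from RefSeq. Genes and lists were chosen with earlier results of these data known. Values in every library are given for called genes that differed by at least 1 on the log2 scale in Ts65Dn against euploid or in the third group against Ts65Dn, and for Axin2, Lef1 and Ctnnb1. Of the further pathway genes, the 5 largest called changes in each direction without overlap in Ts65Dn against euploid are named, with 11 chosen by role. Other genes were named after their values were seen.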

Additional observations from a re-analysis of the deposited data

How the results depend on the processing

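The number of Wnt genes called was 27 to 32 in Ts65Dn against euploid, 28 to 32 in the third group against Ts65Dn and 13 to 17 in the third group against euploid under other normalizations, filters, tests and fits, and 25 to 32, 28 to 32 and 12 to 17 on leaving out 1 library. No called gene changed direction. Of the 30, 31 and 14 calls, 24, 27 and 10 held under every setting. With the replicate number as a block, 32, 32 and 16 genes were called. Same-numbered libraries of the third group correlated with euploid at 0.096, -0.162 and 0.186 and with Ts65Dn at 0.279, -0.125 and 0.206, so those share only a number, and there the block added Rspo2 against Ts65Dn (0.252, adjusted p = 0.0371, edgeR), and Fzd8 (-0.392, 0.0364) and Tcf7l2 (-0.369, 0.00538) against euploid.

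The 2 genes named in the Ts65Dn;Brwd1+/- SMARCA2/4 list became 0 at a q-value under 0.05, at one under 0.01 and with promoter peaks only. Of all peaks in that list, 58.2% had a q-value under 0.05. Differences that were not called and changed sign were Wnt5a in the third group against euploid with at least 10 counts (0.009) and Wnt5b there with DESeq2 size factors (-0.002), without a filter (-0.001) and by DESeq2 (-0.003). On leaving out 1 library they were Fzd9 (-0.030 to 0.162) and Rnf43 (-0.223 to 0.085) in Ts65Dn against euploid, Wnt8b (-0.381 to 0.000) and Fzd2 (-0.097 to 0.194) in the third group against Ts65Dn, and Wnt1 (-0.027 to 0.521), Wnt5a (-0.072 to 0.032), Wnt5b (-0.087 to 0.076) and Fzd5 (-0.126 to 0.040) in the third group against euploid. The cause was not tested. Further calls were lost, in the third group against Ts65Dn, Fzd3 without its replicate 1 (adjusted p = 0.0535) or 3 (0.0654), Fzd9 without Ts65Dn replicate 1 (0.0667) or its own replicate 1 (0.0865), and Fzd5 without Ts65Dn replicate 2 (0.0737) or 3 (0.0784) or its own replicate 1 (0.102) or 2 (0.0546) or with only the 2 genotypes fitted (0.0555), and, against euploid, Dkk3 without euploid replicate 3 (0.0933) or its own replicate 2 (0.0736) or 3 (0.0992), all by edgeR. Further calls were gained by Fzd2 in Ts65Dn against euploid without Ts65Dn replicate 3 (-0.342, adjusted p = 0.0188), by Wnt4 in the third group against Ts65Dn without Ts65Dn replicate 1 (0.401, 0.047), and, in the third group against euploid, by Fzd3 without euploid replicate 2 (-0.378, 0.0393), by Fzd8 without the filter (0.0221), with only the 2 genotypes (0.00422) and without Ts65Dn replicate 1 (0.00747) or 3 (0.0197), and by Lrp6 with DESeq2 size factors (0.047), by DESeq2 (0.0387), with only the 2 genotypes (0.035) and without euploid replicate 2 (0.036) or Ts65Dn replicate 1 (0.0436) or 3 (0.0271). Genes under 1 CPM rest on few reads.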
